A study of Mus musculus with 17 samples.

Results

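The comparison described here is between mouse lungs that had received 75 Gy and lungs that had received 65 Gy, with the samples of 2 and 6 weeks joined. Libraries were chosen by their dose and time labels alone. They were the 6 libraries of 75 Gy (3132 to 3134 at 2 weeks and 3141 to 3143 at 6 weeks) and the 5 libraries of 65 Gy (3129 to 3131 at 2 weeks, 3138 and 3140 at 6 weeks), which are 11 of the 17 libraries analysed. The other 6 libraries, 3 at each time, came from non-irradiated lungs and are used here only to show the level of a gene without irradiation. All mice were male wild-type C57BL/6 animals aged 6 weeks when they arrived, before a spell of acclimatisation. The irradiated animals received a single fraction to a small field in the left lung under image guidance, and RNA was taken from the lesion. The model is therefore one of a focal, very high dose in otherwise untreated inbred animals, and it holds lung that was hit as well as any surrounding tissue that came with the lesion. The sources do not say whether a library stands for a single animal, so that p-values measure the spread between these samples. Another 65 Gy library of 6 weeks was not analysed here, and that group rests on 2 libraries.

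A focal ablative dose kills cells within a small volume, and the lung answers first with inflammation and later with scarring. Macrophages recruited from the blood take up dying cells and their lipids, and in doing so they switch on genes of lipid handling and lysosomes such as Spp1, Gpnmb and Trem2. Damaged cells also set off type I interferon signalling, while lymphocytes release interferon-gamma, which raises antigen presentation on MHC class II. Capillary endothelium and the flat type 1 cells of the alveolus are the lining that gas exchange depends on. Whether a step between doses that are both ablative moves these programmes is the question that the comparison addresses.

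The 11 irradiated libraries held between 54704261 and 66797879 counts on genes, and the 10 most abundant genes made up between 6.39% and 9.27% of a library. The surfactant gene Sftpc, which marks type 2 cells of the alveolus, stood at 8317 to 18865 CPM (read counts scaled to library size with TMM factors) and the airway secretory gene Scgb1a1 at 5274 to 11527 CPM in these libraries, so that defining markers of lung were present in each. The first principal component held 30.1% of the variance and separated the times. On the second, which held 13.3%, the 75 Gy library 3134 lay at 68.3 and the 75 Gy library 3132 at -45.0, with the other 9 between -13.7 and 13.5. Library 3134 also had the highest level of interferon genes, and the 65 Gy library 3129 the highest level of adipocyte genes. Both belong to 2 weeks, and the values below that rest on them most are given with and without them.

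No gene was called between 75 Gy and 65 Gy with the times joined. Of 21715 genes tested with edgeR's quasi-likelihood test and time as a block, 0 (0%) passed 0.05 after Benjamini-Hochberg adjustment, with or without a limit of 1 on the absolute log2 fold change, and the lowest adjusted p was 0.357. At an unadjusted p under 0.05 there were 2791 genes, of which 1452 (6.69%) were higher at 75 Gy and 1339 (6.17%) lower. DESeq2 called 5 genes and limma-voom 0. The median log2 fold change over all genes was 0.0064, 51.3% of the genes were higher at 75 Gy, and 384 differed by at least 1 on the log2 scale in either direction. The 95% confidence interval of the log2 fold change lay wholly between -1 and 1 in 17596 genes (81.0%). Among the 16071 genes that averaged 0 log2 CPM or more this held for 15402 (95.8%), so that a dose difference of more than 2-fold was outside the interval of most expressed genes. The interval lay between -0.5 and 0.5 in 11592 of the 21715 genes (53.4%), and smaller differences were not resolved for the rest.

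Within the separate times the picture was similar. At 2 weeks, edgeR called 0 genes (0%) with a lowest adjusted p of 0.168 and 1560 genes at an unadjusted p under 0.05, whereas DESeq2 called 15 and limma-voom 0. At 6 weeks, edgeR called 1 gene, Gm4788 (0.00461% of the genes tested), and the same gene alone was called (0.00461%) when the dose difference at 6 weeks was tested against that at 2 weeks. Both calls rest on libraries in which Gm4788 had no counts and are described at the end.

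As a single value for the whole profile, the share of the variance of log2 CPM that dose took after time was computed. Time took 28.5%, dose 9.26%, the change of the dose difference with time 7.88%, and the spread within groups 54.4%. The dose share was exceeded or equalled in 7 of the 200 arrangements of the dose labels within times (exact permutation test, p = 0.035, against a smallest possible p of 0.005), where the median share was 7.87% and the highest 10.1%. The profile as a whole thus passed 0.05 in this test while 0 genes passed the adjusted test in the joined fit.

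The sign and size of the difference moved with transcript length. Over the 15424 of these 16071 genes for which the length of the longest transcript was known, the Spearman correlation across genes between length and the joined log2 fold change was -0.44, and it was -0.37 at 2 weeks and -0.36 at 6 weeks. These genes share the same 11 libraries and are not independent, so that no p is given. Among the 3085 shortest genes, of up to 1757 bases, the median log2 fold change was 0.13, 77.0% were higher at 75 Gy, and 615 (19.9%) were higher at an unadjusted p under 0.05 against 35 (1.13%) lower. Among the 3083 longest, of 5130 bases or more, the median was -0.11, 22.4% were higher at 75 Gy, and 45 (1.46%) were higher at that p against 649 (21.1%) lower. Genes in the middle quintile had a median of -0.0051.

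The same pattern could be read from single libraries. Each gene's deviation from the mean of its time was taken in each library. The median of the shortest quintile minus that of the longest was 0.026, -0.19 and -0.18 (log2) after 65 Gy and 0.28, -0.052 and 0.055 after 75 Gy at 2 weeks. At 6 weeks it was -0.18 and -0.10 at 65 Gy and -0.025, 0.10 and 0.22 at 75 Gy. The groups were apart at 6 weeks and overlapped at 2 weeks, where the 65 Gy library 3129 stood above the 75 Gy library 3133. The joined difference of 0.22 was reached in 4 of 200 arrangements within times (exact permutation test, p = 0.02), in a measure that was chosen after seeing the data. When each library's trend with length was removed, 2019 of 19209 genes (10.5%) had an unadjusted p under 0.05, of which 6.17% were higher and 4.34% lower, and edgeR called 0 genes with a lowest adjusted p of 0.456. The dose share of variance was then 8.93% (exact permutation test, p = 0.075). Whether RNA quality or library preparation has a part in the length trend was not tested, and values with the trend removed are given below for some of the genes and for the lists described.

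**Figure D1:**
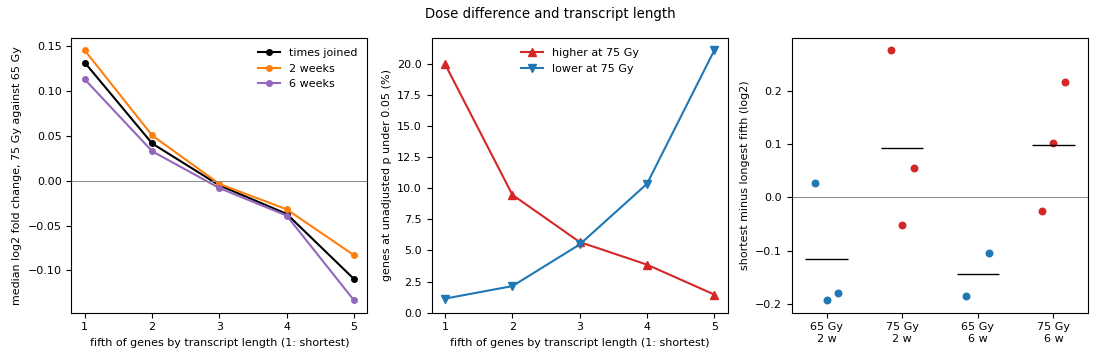
Dose difference against transcript length. Left, median log2 fold change of 75 Gy against 65 Gy in each quintile of the genes by length of the longest transcript, for the times joined and for each time. Middle, percentage of the genes of each quintile at an unadjusted p under 0.05 in the joined fit, by direction. Right, each library's median deviation of the shortest quintile minus that of the longest (log2), with the group mean as a bar. The joined median goes from 0.13 in the shortest to -0.11 in the longest quintile.

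The 10 genes with the smallest p on the side of higher levels at 75 Gy included Spp1, Igf1, Cst3, Ccl6 and Wfdc17. Spp1 (chr5:104435111-104441053 of GRCm38.p6), which encodes the matrix protein osteopontin that macrophages in scarring tissue secrete, stood at 552, 679.6 and 721 CPM in the 65 Gy and at 949, 872 and 1053 CPM in the 2-week 75 Gy libraries. The 6-week levels were 1275 and 1615 CPM after 65 Gy and 1802, 1910.2 and 2499.7 CPM after 75 Gy. Non-irradiated lungs held 52.9 to 155 CPM. The dose groups did not overlap at either time, and the joined log2 fold change was 0.54 (SE 0.11). Igf1 (chr10:87858265-87937047), a growth factor that macrophages and fibroblasts make, was at 78.1, 76.5 and 83.7 CPM at 65 Gy against 127, 120.4 and 124 CPM at 75 Gy at 2 weeks, with the groups well apart. At 6 weeks the groups overlapped, with 89.1 and 79 against 88.7, 112 and 99.3 CPM, and the joined value was 0.47 (SE 0.088). With the length trend removed, the log2 fold changes were 0.47 for Spp1 and 0.57 for Igf1.

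Cst3 (chr2:148871722-148875512), which encodes the cysteine protease inhibitor cystatin C, was at 493, 454 and 465 CPM at 65 Gy and 646, 530.3 and 602 CPM at 75 Gy at 2 weeks. The 6-week values were 607 and 603 and 733, 754 and 786 CPM, again without overlap, for a joined log2 fold change of 0.33 (SE 0.067) that was 0.20 with the length trend removed. The chemokine gene Ccl6 had 613, 623 and 624 CPM against 1024, 835 and 876 CPM at 2 weeks and 794 and 747 against 835, 955 and 911 CPM at 6 weeks. Its groups were apart at both times, more widely at 2 weeks, and the joined value was 0.41 (SE 0.087). Wfdc17, a small secreted protein of activated macrophages, had 25.3, 23 and 21.3 CPM against 60.1, 29 and 44.3 CPM at 2 weeks and 19.6 and 30.5 against 34.1, 45.7 and 41.8 CPM at 6 weeks, with a joined log2 fold change of 0.83 (SE 0.18). In the leukocyte gene Cd53, a tetraspanin, the joined log2 fold change was 0.53 (SE 0.12), and in Cldn2, a claudin of tight junctions, 0.96 (SE 0.21). The 3 further genes of this rank, 2610524H06Rik, 1110038B12Rik and Zeb2os, gave 0.57 (SE 0.10), 0.49 (SE 0.10) and 0.62 (SE 0.13). Zeb2os lies antisense to Zeb2, and whether the counting used strand is not given in the sources used here. Each of the 10 had an adjusted p of 0.357 (edgeR), and all 10 stayed above 0 with the length trend removed where a length was known.

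On the side of lower levels at 75 Gy, the smallest p belonged to Mfsd2a (chr4:122946850-122961194), a lipid transporter of endothelial and type 2 cells. It had 23.8, 23.4 and 24 CPM at 65 Gy and 11.8, 16.8 and 15.7 CPM at 75 Gy at 2 weeks. At 6 weeks the values were 34.1 and 40.4 and 28.8, 21.3 and 28 CPM, and non-irradiated lungs held 4.56 to 15.3 CPM. The groups were apart at both times, the joined log2 fold change was -0.61 (SE 0.11), and it was -0.64 with the length trend removed. At 2 weeks, the level after 75 Gy lay nearer to that of non-irradiated lungs than the level after 65 Gy did.

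Igf1r (chr7:67952257-68233668), the receptor of the growth factor Igf1, was at 82.6, 101 and 93 against 74.1, 86.9 and 69.1 CPM at 2 weeks and at 87.4 and 80.7 against 65.4, 59.5 and 55.7 CPM at 6 weeks. Its groups overlapped at 2 weeks and were apart at 6 weeks, and the joined value was -0.36 (SE 0.084), or -0.23 with the length trend removed. The ligand and its receptor therefore had joined differences of opposite sign. Others of this rank were Rgs12 (-0.32), a regulator of G protein signalling, the histone chaperone gene Hira (-0.24), the kinase gene Sik2 (-0.25), the sulfotransferase gene Chst8 (-0.59), the synaptic gene Rims2 (-1.02), Gfod1 (-0.34) and 4930402H24Rik (-0.22). Each gene of this rank also had an adjusted p of 0.357 (edgeR). Over all genes, 317 (1.46%) had every 75 Gy library above every 65 Gy library at both times and 334 (1.54%) had every 75 Gy library below. At 2 weeks alone, 1127 of the 21715 genes were apart with 75 Gy above and 1250 with 75 Gy below. At 6 weeks alone, where 65 Gy has 2 libraries, the counts were 3390 and 3327. Groups without overlap at 6 weeks were therefore common among all genes.

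**Figure D2:**
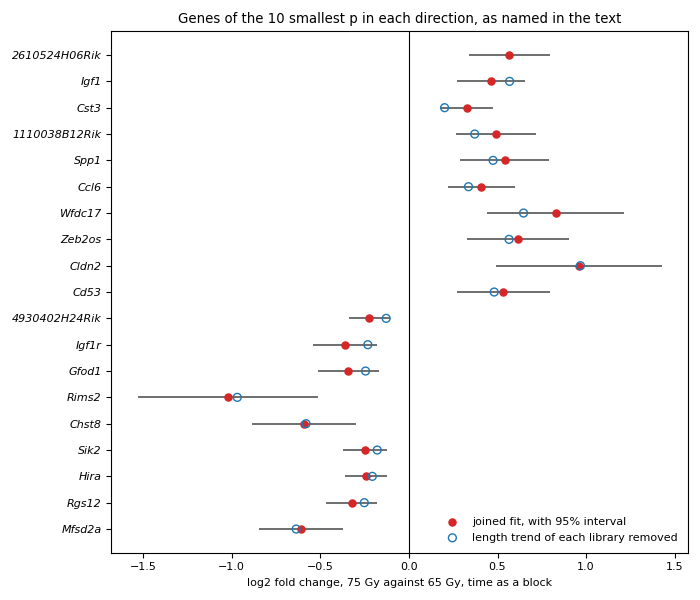
Genes of the 10 smallest p on each side of the joined comparison, those named in the text. Points are log2 fold changes of 75 Gy against 65 Gy with time as a block, lines their 95% confidence intervals, and open circles the values with each library's length trend removed. The genes were ranked by p, so that intervals away from 0 follow from the choice, and the adjusted p was 0.357 for each.

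Genes of lipid-laden macrophages lay together above 0. Of the 32 tested, 29 were higher at 75 Gy, with a median log2 fold change of 0.25 (0.28 at 2 weeks and 0.14 at 6 weeks), and 14 (43.8%) were higher at an unadjusted p under 0.05 against 0 lower, where all genes gave 6.69% and 6.17%. None passed the adjusted test. Without the 75 Gy library 3134, 25 were positive with a median of 0.17 and 14 had that p. With the length trend removed, 30 were positive with a median of 0.22 and 13 had that p. Averaged over the list, log2 CPM was 7.18, 7.21 and 7.19 in the 65 Gy and 7.36, 7.41 and 7.89 in the 2-week 75 Gy libraries, against 5.54 to 6.13 without irradiation. At 6 weeks it was 7.41 and 7.47 against 7.61, 7.48 and 7.54, with the 75 Gy libraries narrowly above. The step between doses was thus small beside the step from non-irradiated to irradiated lung. In bulk tissue, fewer cells of a type and less RNA per cell cannot be told apart, and the same holds for more of either.

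Besides Spp1, the members with the smallest p were Ms4a7 and Cd63. Ms4a7, a membrane protein of tissue macrophages, had 21.5, 20.1 and 18.1 CPM at 65 Gy and 26.9, 25 and 56.3 CPM at 75 Gy at 2 weeks, where the highest value is that of library 3134. The 6-week values were 24.3 and 20.6 and 29.8, 42.2 and 40.6 CPM, and the joined log2 fold change was 0.81 (SE 0.19). Cd63, a tetraspanin of lysosomes, had 212, 187 and 202 and 313, 222 and 308 CPM at 2 weeks and 238 and 234 and 249, 286 and 280.5 CPM at 6 weeks, for 0.36 (SE 0.10). Both were apart between doses at both times. Not all familiar members behaved so. Marco, which this list shares with that of alveolar macrophages, was lower at 75 Gy at 6 weeks and is described below. Gpnmb, a transmembrane glycoprotein of lipid-loaded macrophages, overlapped at both times, with 412, 573 and 537 against 345, 576 and 872 CPM at 2 weeks and a joined value of 0.19 (SE 0.20). The gene of the apolipoprotein Apoe, chosen like Gpnmb after its values were seen, had 901, 814 and 1009 CPM against 801, 1908 and 2322 CPM at 2 weeks, so that library 3132 lay just under the 65 Gy range and the other 75 Gy libraries well above it. Its joined value was 0.66 (SE 0.22).

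Resident alveolar macrophages are a separate population, kept in part by surfactant signals. Their list of 16 genes had a median of 0.061 with 10 positive. At an unadjusted p under 0.05, 5 (31.25%) were higher and 1 (6.25%) lower, against 6.69% and 6.17% of all genes. Of the 16, 9 are in the shortest quintile, where 19.9% of all genes were higher at that p. With the length trend removed, the median was -0.017. Ear2, an eosinophil-type ribonuclease gene of these cells, had 36.6, 47.2 and 36.5 CPM at 65 Gy and 95.3, 69 and 116 CPM at 75 Gy at 2 weeks. The 65 Gy values of 2 weeks were below those of non-irradiated lungs (61.2 to 151 CPM), and the 75 Gy values were within their range. At 6 weeks the groups held 188 and 191 and 211, 249 and 202 CPM, close together, and the log2 fold changes were 1.22 (SE 0.18) at 2 and 0.22 (SE 0.19) at 6 weeks. The near-identical paralog Ear10 gave 1.37 (SE 0.22) and 0.23 (SE 0.23), and reads could be split between these genes. Atp6v0d2 and Mrc1 followed in the list with joined values of 0.29 (SE 0.083) and 0.22 (SE 0.075). Marco, a scavenger receptor of the same cells, was lower at 75 Gy at 6 weeks. It had 36 and 20.4 CPM at 65 Gy and 13, 9.62 and 7.84 CPM at 75 Gy, a log2 fold change of -1.47 (SE 0.26) (edgeR, adjusted p = 0.539). DESeq2 called Marco at 6 weeks (adjusted p = 0.000213) and for the difference between times (adjusted p = 0.00992). At 2 weeks Marco overlapped, with 104, 99.6 and 81.2 against 133, 96.8 and 97.4 CPM.

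**Figure D3:**
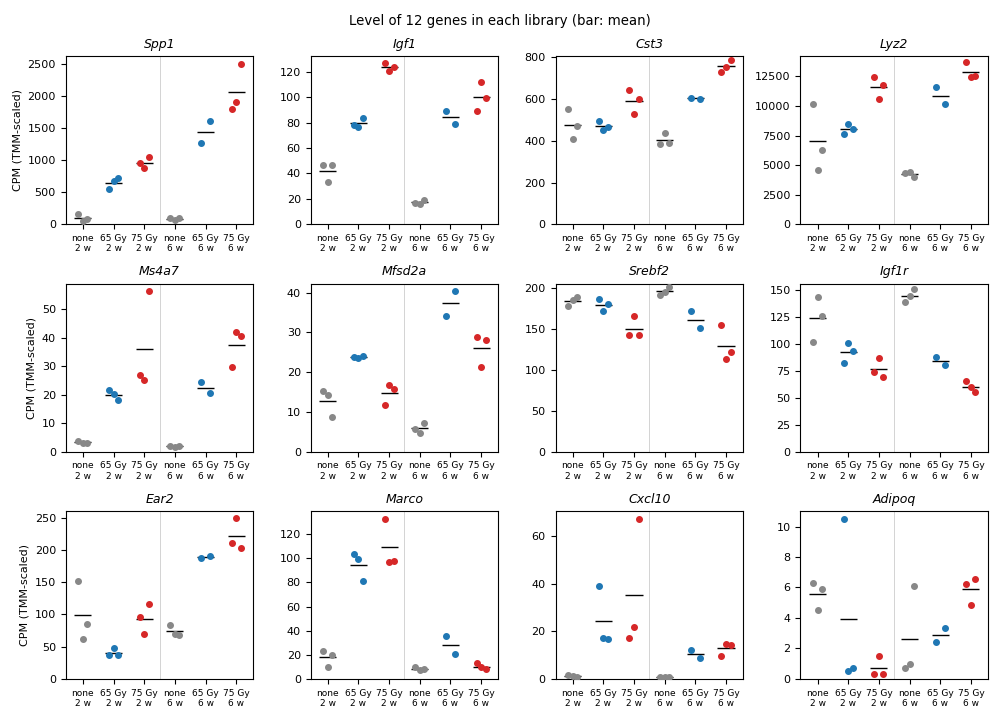
Levels of 12 genes in every library. The vertical axis of each panel is CPM scaled with TMM factors and starts at 0, points are libraries, bars are group means, and the columns are no irradiation, 65 Gy and 75 Gy at 2 and at 6 weeks. Spp1, Cst3 and Lyz2 lie higher and Mfsd2a lower in all 75 Gy libraries of each time, while Cxcl10 is highest in the 75 Gy library 3134 and Adipoq in the 65 Gy library 3129.

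Antigen presentation and dendritic cell genes lay on the same side. Of 12 genes of MHC class II presentation, 11 were higher at 75 Gy with a median of 0.39. At an unadjusted p under 0.05, 6 (50%) were higher and 0 lower, against 6.69% and 6.17% of all genes. The median was 0.20 with 3 such genes without library 3134, and 0.35 with 3 with the length trend removed. Of the 12 genes, 7 are in the shortest quintile, where 19.9% of all genes had that p and direction. H2-Aa, the alpha chain of I-A, had 878, 624 and 655 CPM at 65 Gy and 830.4, 819.9 and 1685 CPM at 75 Gy at 2 weeks, overlapping, and 1114 and 1017 against 1193, 1635 and 1569 CPM at 6 weeks, without overlap (0.55 (SE 0.19)). Ctss, the protease that trims the invariant chain, gave 0.76 (SE 0.26) with 3219 CPM in library 3134, and H2-DMb1, a peptide exchanger, gave 0.43 (SE 0.16). Without library 3134 the joined values were 0.33 for H2-Aa, 0.39 for Ctss and 0.23 for H2-DMb1. Of 15 dendritic cell genes, 13 were positive with a median of 0.29, or 0.13 without library 3134. The chemokine receptor gene Xcr1 of cross-presenting dendritic cells gave 0.47 (SE 0.14), and Clec10a, a lectin of conventional dendritic cells, 0.58 (SE 0.17). The lectin gene Cd209a had at 6 weeks 11 and 14.3 CPM at 65 Gy against 19.8, 33.5 and 27.1 CPM at 75 Gy (1.08 (SE 0.25)), and its log2 fold change was 0.12 (SE 0.22) at 2 weeks. DESeq2 called it at 6 weeks (adjusted p = 0.0329).

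Of 51 genes of inflammatory cytokines and chemokines, 44 were positive with a median of 0.25, and 8 (15.7%) were higher and 0 lower at an unadjusted p under 0.05. Of these 51, 29 are in the shortest quintile, where 19.9% of all genes had that p and direction. With the length trend removed the median was 0.19, with 6 higher and 1 lower, and without library 3134 it was 0.14. Ccl8, which attracts monocytes, had 11.1, 7.75 and 8.35 CPM at 65 Gy and 15, 14.3 and 19.3 CPM at 75 Gy at 2 weeks and 35.8 and 25 against 27.7, 68.3 and 49 CPM at 6 weeks (0.76 (SE 0.21)). Ccl17, a ligand of Ccr4 on T cells, had 13.2, 6.4 and 10.6 against 24.4, 15.8 and 28.7 CPM at 2 weeks (0.79 (SE 0.23) joined). Ccl12, a monocyte chemokine, had the smallest p on the higher side at 2 weeks, with 3.48, 2.36 and 2.35 CPM at 65 Gy and 6.82, 7.6 and 9.21 CPM at 75 Gy. Its values were 3.79 and 4.13 and 3.21, 4.12 and 4.71 CPM at 6 weeks, so that its log2 fold change of 1.53 (SE 0.21) at 2 weeks (edgeR, adjusted p = 0.168) stood against 0.017 (SE 0.23) at 6 weeks. The difference between these had an adjusted p of 0.892 with edgeR. DESeq2 called Ccl12 both at 2 weeks (adjusted p = 6.89e-08) and for the difference (adjusted p = 0.0113).

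Lymphocyte lists did not move together. Of 33 T and NK cell genes, 22 were positive with a median of 0.13 and 6 (18.2%) were higher at an unadjusted p under 0.05, against 6.69% of all genes and 19.9% of the shortest quintile, which holds 14 of these 33. Without library 3134 the median was -0.048. Foxp3, the factor of regulatory T cells, had 7.46, 4.22 and 4.02 CPM at 65 Gy against 4.41, 8.45 and 17.8 CPM at 75 Gy at 2 weeks, overlapping, and 5.93 and 5.57 against 9.25, 10.9 and 10.5 CPM at 6 weeks (0.91 (SE 0.29) joined and 0.57 without library 3134). Cxcr6, a receptor of tissue T cells, gave 0.56 (SE 0.18), and Klrd1, a receptor of NK cells, 0.44 (SE 0.16). Of 17 B cell genes, 0 were positive in the joined fit, with a median of -0.22 that was -0.41 at 2 weeks and -0.0021 at 6 weeks. At an unadjusted p under 0.05, 3 (17.65%) were lower, against 6.17% of all genes. Pax5, the factor that sets B cell identity, had 25.7, 21.8 and 22.2 CPM at 65 Gy and 12.8, 16.4 and 9.26 CPM at 75 Gy at 2 weeks without overlap, and 24.9 and 26.2 against 28.2, 22.5 and 17.3 CPM at 6 weeks with overlap (-0.86 (SE 0.21) and -0.17 (SE 0.23)). The complement receptor gene Cr2 gave -0.55 (SE 0.18) at 2 weeks and -0.059 (SE 0.20) at 6 weeks. Without library 3134 the joined B cell median was -0.13 with 3 genes positive.

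Genes of cholesterol and fatty acid synthesis lay below 0. These genes are driven by the factor Srebf2 and its relative Srebf1, which enter the nucleus when membranes lack sterol and bind sterol response elements in promoters. Of the 30 genes, 1 was higher at 75 Gy and 29 lower, with a median of -0.14, and 9 were lower at an unadjusted p under 0.05 against 6.17% of all genes. The median was -0.15 at each time. None of the 30 is in the shortest quintile and 5 are in the longest. With the length trend removed, the median was -0.12, 2 were positive and 6 were lower at that p. Without library 3134, 6 were positive, the median was -0.10 and 7 were lower, and the median of 2 weeks was -0.042. Averaged over the list, log2 CPM was 6.44, 6.29 and 6.30 in the 65 Gy and 6.29, 6.22 and 5.90 in the 2-week 75 Gy libraries, and 6.21 and 6.18 against 6.20, 5.93 and 6.04 at 6 weeks.

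Srebf2 was among the members with the smallest p. It had 187, 172 and 181 against 143, 166 and 143 CPM at 2 weeks and 172 and 152 against 155, 113 and 122 CPM at 6 weeks (-0.28 (SE 0.086)). The doses were apart at 2 weeks and overlapped at 6 weeks. Fasn, which makes palmitate, gave -0.37 (SE 0.14) with 1473, 1302 and 1275 against 1095, 1265 and 836 CPM at 2 weeks. Promoters were searched for the sterol response letters TCACNCCAC on both strands, and 1 of the 20 genes of the list with a promoter in RefSeq (5%) held them, against 230 of 15581 genes (1.48%). This gene was Hmgcs1, the enzyme of an early step of the pathway, which had 174, 157 and 171 CPM at 65 Gy and 172, 156 and 123 CPM at 75 Gy at 2 weeks (-0.12 (SE 0.082) joined) and was chosen after its values were seen. Its promoter (RefSeq, GRCm38.p6, chr13:119690101-119690400, plus strand) is shown to let the element be seen in its place, with the matching letters in capitals.
Hmgcs1: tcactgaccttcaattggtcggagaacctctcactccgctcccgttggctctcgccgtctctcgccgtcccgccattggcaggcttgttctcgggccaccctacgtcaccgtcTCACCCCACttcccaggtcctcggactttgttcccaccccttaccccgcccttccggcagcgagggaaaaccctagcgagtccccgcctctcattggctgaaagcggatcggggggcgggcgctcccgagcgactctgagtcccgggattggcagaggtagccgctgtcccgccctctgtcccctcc

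Endothelial and type 1 epithelial genes also had lower medians at 75 Gy. Of 26 capillary endothelium genes, 3 were positive with a median of -0.19 (-0.13 at 2 weeks and -0.31 at 6 weeks). At an unadjusted p under 0.05, 4 (15.4%) were lower, against 6.17% of all genes. Kdr, the main receptor of vascular endothelial growth factor, had 387, 397 and 397 CPM at 65 Gy and 387, 351 and 203 CPM at 75 Gy at 2 weeks, where library 3132 was level with the lowest 65 Gy library. By 6 weeks it had 301 and 323 against 261, 215 and 207 CPM, without overlap (-0.45 (SE 0.22) at 6 weeks and -0.38 (SE 0.14) joined). Every 75 Gy library was likewise below every 65 Gy library at 6 weeks in 3327 of all 21715 genes. Cdh5, the cadherin of endothelial junctions, had 561 and 642 against 514, 377 and 390.3 CPM at 6 weeks (-0.49 (SE 0.21)) and Tie1, a receptor kinase, 166 and 159 against 144, 115 and 108 CPM at that time (-0.41 (SE 0.19)). At 2 weeks the list turned on 1 library. Its mean log2 CPM was 7.38, 7.42 and 7.41 at 65 Gy and 7.69, 7.47 and 6.51 at 75 Gy, and without library 3134 the 2-week median was 0.17 with 22 of 26 genes positive, while the 6-week median was -0.31. Of 15 genes of alveolar type 1 cells, 1 was positive with a median of -0.16, or -0.071 without library 3134. Vegfa, the growth factor that type 1 cells supply to capillaries, gave -0.29 (SE 0.13), or -0.19 without library 3134, and the matrix proteoglycan gene Spock2 -0.22 (SE 0.094). Alveolar type 2 genes had a median of 0.00018 with 9 of 18 positive. Among them Lyz2, which macrophages share, had 7641, 8508 and 8092 against 12449.7, 10616 and 11807 CPM at 2 weeks and 11576 and 10132 against 13714, 12428 and 12565 CPM at 6 weeks (0.40 (SE 0.10)), whereas the lipid pump gene Abca3 of surfactant bodies gave -0.26 (SE 0.095).

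Genes that mark the transition from type 2 to type 1 cells after injury, which include keratins and claudins, were mostly above 0. Of 15, 14 were positive with a median of 0.21, or 0.091 without library 3134. At an unadjusted p under 0.05, 3 (20%) were higher. The share was 6.69% of all genes and 19.9% of the shortest quintile, which holds 7 of these 15. Krt18, a keratin of simple epithelia, had 133 and 147 CPM at 65 Gy and 159, 165 and 195 CPM at 75 Gy at 6 weeks (0.28 (SE 0.12) joined and 0.16 without library 3134). Cldn4, a claudin of this state, had 10.4, 8.41 and 8.02 against 6.31, 10.1 and 29.8 CPM at 2 weeks and 15.3 and 13.7 against 18.2, 21.1 and 26.7 CPM at 6 weeks (0.70 (SE 0.31) joined and 0.25 without library 3134). Of 24 antioxidant genes of the factor NRF2, 18 were positive with a median of 0.11, and 4 (16.7%) were higher at that p. Of these 24, 9 are in the shortest quintile. Prdx1, a peroxide-reducing enzyme, had 412, 434 and 426 against 777, 498 and 592 CPM at 2 weeks and 504 and 516 against 572, 610.0 and 648 CPM at 6 weeks (0.42 (SE 0.11)), apart at both times. Gsta1, a glutathione transferase with close paralogs, gave 0.77 (SE 0.19), and the aldo-keto reductase gene Akr1b8 0.22 (SE 0.071).

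Interferon genes were higher at 75 Gy by their medians, and at 2 weeks this came with a single library. Type I interferon acts through a complex of transcription factors that binds interferon-stimulated response elements. Of 36 genes of the type I response, 34 were positive with a median of 0.22. At an unadjusted p under 0.05, 7 (19.4%) were higher, against 6.69% of all genes. Averaged over the list, log2 CPM was 5.53, 5.45 and 5.38 at 65 Gy and 5.31, 5.20 and 6.20 at 75 Gy at 2 weeks, where the 75 Gy libraries 3132 and 3133 lay below all of those of 65 Gy and library 3134 above. Without library 3134, the 2-week median was -0.21 with 9 positive and the joined median -0.0033 with 18 positive. At 6 weeks the list stood at 4.79 and 4.70 after 65 Gy and 4.85, 5.08 and 5.03 after 75 Gy, without overlap, and the median was 0.28.

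Isg15, a ubiquitin-like protein that interferon induces, had 28.4, 25 and 25.7 CPM at 65 Gy and 42.7, 21.7 and 46.8 CPM at 75 Gy at 2 weeks, with library 3133 below the 65 Gy range and the others above it. The 6-week values were 14.5 and 14 against 15.1, 20.6 and 22.6 CPM (0.47 (SE 0.17)). Ifi27l2a and Ifi205, both interferon-induced, gave 0.63 (SE 0.21) and 0.62 (SE 0.21) (0.41 for Ifi205 without library 3134), and Ifi205 has near-identical neighbours in its gene cluster with which it may share reads. The response element was searched as GAAA, NN and GAAA in a row, and these letters were present on either strand in 16 of the 27 genes of the list with a promoter in RefSeq (59.3%) and in 600 of 15581 genes (3.85%). The promoter of Isg15 (RefSeq, GRCm38.p6, chr4:156200769-156201068, minus strand) is printed as the plainest case, with 3 overlapping matches in capitals, of which the first begins at -78 from the start of the gene.
Isg15: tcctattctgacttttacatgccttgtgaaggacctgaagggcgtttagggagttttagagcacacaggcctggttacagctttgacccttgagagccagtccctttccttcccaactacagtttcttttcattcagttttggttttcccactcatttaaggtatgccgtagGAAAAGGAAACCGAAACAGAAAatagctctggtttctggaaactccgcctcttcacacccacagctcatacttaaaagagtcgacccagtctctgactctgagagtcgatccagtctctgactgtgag

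The interferon-gamma list had a median above 0 at 2 weeks and slightly below 0 at 6 weeks. Of 45 genes, 43 were positive with a median of 0.28, but 0 had an unadjusted p under 0.05, and the median was 0.56 at 2 weeks and -0.071 at 6 weeks. Its mean log2 CPM was 5.06, 4.58 and 4.61 at 65 Gy and 4.65, 4.80 and 6.13 at 75 Gy at 2 weeks, and without library 3134 the joined median was -0.063 with 17 positive. Fcgr1, an Fc receptor of macrophages, had 24.1, 23.2 and 20.3 CPM at 65 Gy and 18.2, 26.3 and 75.8 CPM at 75 Gy at 2 weeks (0.63 (SE 0.30)). Fcgr4 and Ido1, which encode another Fc receptor and a tryptophan-degrading enzyme, gave 0.44 (SE 0.21) and 0.70 (SE 0.33). Without library 3134 the values were 0.18 for Fcgr1, 0.16 for Fcgr4 and 0.25 for Ido1. Saa3, Cxcl10 and Acod1 were among the genes that the study also measured by RT-qPCR. Cxcl10, a chemokine for activated T cells, had 39, 17.1 and 16.6 CPM at 65 Gy and 17.3, 21.8 and 67.2 CPM at 75 Gy at 2 weeks. Acod1, the itaconate-making enzyme of macrophages, had 14.2, 9.28 and 6.83 and 4.25, 4.71 and 63.1 CPM, and the acute-phase gene Saa3 94.3, 52.2 and 49.4 and 61.4, 31 and 130.0 CPM. Library 3134 was the highest for each of them, and the other 75 Gy libraries lay within or below the 65 Gy range. Their joined log2 fold changes were 0.44 (SE 0.35), 0.73 (SE 0.68) and 0.25 (SE 0.31), and without library 3134 they were -0.0098, -0.69 and -0.089.

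**Figure D4:**
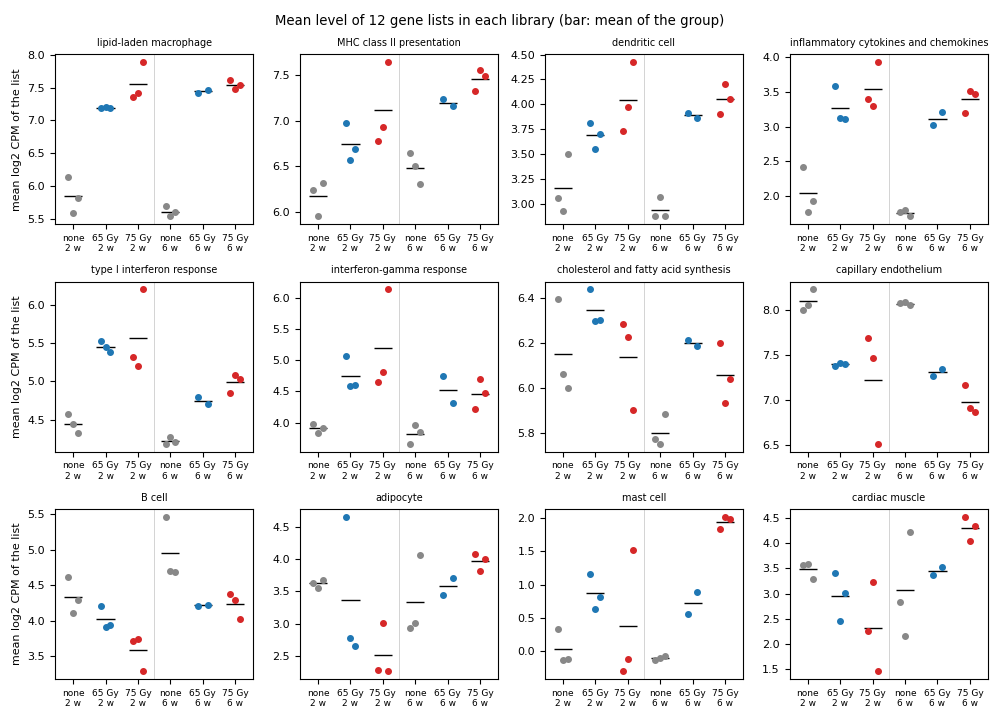
Mean log2 CPM of 12 gene lists in every library, with the columns as no irradiation, 65 Gy and 75 Gy at 2 and at 6 weeks, points as libraries and bars as group means. The 75 Gy library 3134 of 2 weeks is the highest point of the interferon, MHC class II and lipid-laden macrophage lists and the lowest of the endothelial list, and the 65 Gy library 3129 of 2 weeks is the highest of the adipocyte list.

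Library 3134 stood apart in more than interferon genes. The pan-leukocyte gene Ptprc, chosen after its values were seen, had 254, 243 and 245 CPM in the 65 Gy libraries of that time and 211, 236 and 427 CPM in those of 75 Gy, where the last value is that of 3134. The same library had the lowest mean of the endothelial list (6.51 log2 CPM) and of the cardiac muscle list (1.46 log2 CPM). The part of cell content in its levels was not tested. Without libraries 3129 and 3134, an alternative chosen after seeing the data, edgeR again called 0 genes with the times joined, and 3450 genes had an unadjusted p under 0.05.

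Adipocyte genes were lower at 75 Gy by their median, and at 2 weeks this came with the 65 Gy library 3129. Fat cells lie in the mediastinum and along large airways and vessels rather than in the alveolar lung. Of 29 genes, 5 were positive with a joined median of -0.42, -0.90 at 2 weeks and 0.24 at 6 weeks. Adipoq, the fat cell hormone adiponectin, had 10.5, 0.522 and 0.69 CPM at 65 Gy and 0.337, 1.47 and 0.332 CPM at 75 Gy at 2 weeks, so that only library 3129 was high. At 6 weeks it had 2.4 and 3.34 against 6.21, 4.87 and 6.57 CPM, without overlap. Car3, a carbonic anhydrase abundant in fat, had 70.9, 2.99 and 3.57 and 0.478, 10.5 and 3.25 CPM at 2 weeks and 18.5 and 25.1 and 42.4, 32.5 and 46.5 CPM at 6 weeks. Plin1, which coats lipid droplets, had 10.7, 0.743 and 0.513 and 0.39, 0.456 and 0.507 CPM at 2 weeks. Non-irradiated lungs spanned 0.729 to 6.31 CPM of Adipoq and 6.45 to 50.7 CPM of Car3, and the 2-week value of 65 Gy library 3129 lay above that span for both genes. The 65 Gy libraries 3130 and 3131 and the 75 Gy libraries 3132 and 3134 lay below it for both genes. The 75 Gy library 3133 lay within it. The joined log2 fold changes were -0.95 (SE 0.98), -1.06 (SE 1.09) and -1.46 (SE 1.01), and without library 3129 they were 0.69, 0.73 and 0.19. Without that library, 15 of 28 adipocyte genes were positive with a median of 0.041. Ucp1, the heat-making protein of brown fat, had 18 CPM in library 3129 and at most 0.302 CPM in the other irradiated libraries.

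The medians of several lists were also taken with the length trend of each library removed. The joined median was then 0.22 for dendritic cell, 0.10 for T and NK cell, -0.25 for B cell and -0.017 for alveolar macrophage genes. For tissue cells it was -0.19 for capillary endothelium, -0.11 for alveolar type 1, 0.17 for transitional epithelium, -0.43 for adipocyte, 0.45 for mast cell, 0.31 for mesothelial and 0.049 for cardiac muscle genes. The NRF2 list gave 0.12, the type I interferon list 0.21 and the interferon-gamma list 0.29. Among these lists, the sign differed from that of the fit without this step for alveolar macrophage genes alone. Without both libraries 3129 and 3134, the joined median was 0.14 for lipid-laden macrophage, -0.080 for cholesterol and 0.03 for type I interferon genes.

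**Figure D5:**
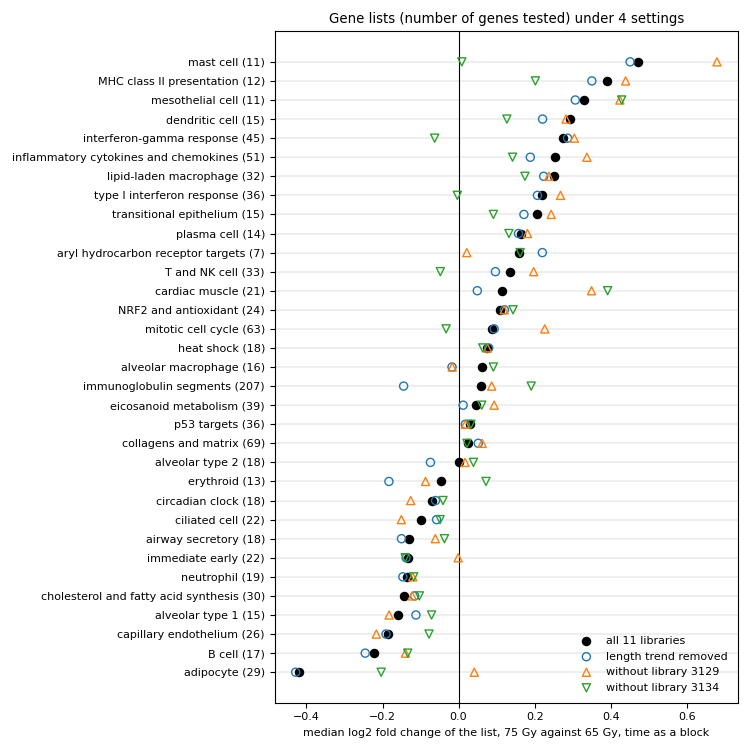
Median joined log2 fold change of 75 Gy against 65 Gy for the gene lists, with the number of genes tested in brackets. Filled points use all 11 libraries, open circles the fit with each library's length trend removed, and triangles the fits without library 3129 or without library 3134. The lipid-laden macrophage median lies between 0.17 and 0.25 and the cholesterol median between -0.14 and -0.10 in these fits, whereas the adipocyte median crosses 0 without 3129 and the interferon medians do so without 3134.

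At 6 weeks, several further groups of genes were higher at 75 Gy in their point estimates. The median of 11 mast cell genes was 1.52 at 6 weeks and -0.068 at 2 weeks. Their mean log2 CPM at 6 weeks was 0.55 and 0.89 at 65 Gy and 1.82, 2.01 and 1.98 at 75 Gy, against -0.13 to 0.34 without irradiation, and at 2 weeks the 75 Gy libraries ranged more widely, at -0.29, -0.11 and 1.52. Cpa3, a protease of mast cell granules, had 3.18 and 4.52 against 9.65, 14.4 and 12.7 CPM (1.67 (SE 0.38); edgeR, adjusted p = 0.692), and the granule chymase gene Mcpt4 1.87 and 2.28 against 4.87, 5.65 and 5.65 CPM (1.38 (SE 0.43); adjusted p = 0.692). DESeq2 called Cpa3 at 6 weeks (adjusted p = 0.00775) and both for the difference between times (adjusted p = 0.0408 and 0.0294). Both were picked with their values known. The members with the smallest p in the joined fit were Fcer1a, a chain of the IgE receptor, at 0.99 (SE 0.30), the granule protease gene Mcpt2 at 0.99 (SE 0.66) (0.0011 without library 3134) and Kit, a growth factor receptor of mast cells and other cells. Kit had the opposite sign, with 122 and 106 against 85.2, 77.3 and 73.3 CPM at 6 weeks (-0.54 (SE 0.21)) and -0.28 (SE 0.15) joined. Without library 3134 the joined median of the list was 0.0084.

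The 11 mesothelial genes, of the cells that cover the lung, were all positive in the joined fit with a median of 0.33, from -0.018 at 2 weeks and 0.66 at 6 weeks. Their mean log2 CPM at 6 weeks was 2.90 and 2.66 at 65 Gy and 3.92, 3.76 and 3.17 at 75 Gy. Non-irradiated lungs of that time held 3.28 to 4.42, so that both 65 Gy libraries lay below them. Msln, the mesothelin of their surface, had 14.7 and 9.32 CPM at 65 Gy and 21.3, 22.3 and 14.7 CPM at 75 Gy at 6 weeks (0.69 (SE 0.25)), and 4.95 and 5.54 against 8.69, 9.8 and 6.34 CPM was found for Aldh1a2, an enzyme of retinoic acid synthesis (0.66 (SE 0.23)). Cardiac muscle genes, which in mouse lung come from the sleeve of the pulmonary veins, had a median of -0.61 at 2 weeks and 0.90 at 6 weeks. Myl7, the atrial myosin light chain, chosen after its values were seen, had 21 and 26.4 CPM at 65 Gy and 58.7, 43 and 54.8 CPM at 75 Gy at 6 weeks, and 6.82 to 39.8 CPM in non-irradiated lungs. Adipocyte, mast cell, mesothelial and cardiac genes were thus all higher at 75 Gy at 6 weeks by their medians. Which part of the lung entered each sample was not tested, and with 2 libraries of 65 Gy at this time it cannot be told apart from dose.

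Apod, a lipid carrier of fibroblasts and nerve sheaths, was among the leading genes at 6 weeks, with 26.1 and 29.5 CPM at 65 Gy and 45.7, 50 and 61.5 CPM at 75 Gy, a log2 fold change of 0.91 (SE 0.18), against -0.28 (SE 0.16) at 2 weeks. On the lower side at 6 weeks, besides Marco, stood Ip6k3, an inositol phosphate kinase (-0.86 (SE 0.18)), Mycl, a relative of Myc (-0.53 (SE 0.11)), and the keratin gene Krt79, with 16.9 and 9.92 against 4.84, 5.49 and 3.19 CPM (-1.57 (SE 0.37)). Their adjusted p was 0.692 (edgeR), and DESeq2 called Krt79 (adjusted p = 0.0329). Krt79 is also a member of the alveolar macrophage list. Leading genes on the lower side at 2 weeks, with an adjusted p of 0.682 (edgeR), were Klf4, a factor of endothelial and epithelial cells (143, 167 and 141 against 104, 95.1 and 89.6 CPM, -0.64 (SE 0.14)), Tafa5 (-0.87 (SE 0.18)), Npcd (-1.40 (SE 0.30)), Mfsd2a and Pdk4, a brake on glucose oxidation (18.1, 10.9 and 12.7 against 6.64, 8.1 and 5.33 CPM, -1.05 (SE 0.24)).

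Immunoglobulin gene segments are joined by each B cell clone in its own way. Of 207 segments, 113 were positive with a median of 0.059, and 15 were higher and 15 lower at an unadjusted p under 0.05, which is 7.25% in each direction against 6.69% and 6.17% of all genes. The median was -0.26 with 75 positive at 2 weeks and 0.46 with 135 positive at 6 weeks. Almost all segments are short, with 201 in the shortest quintile, and with the length trend removed 86 were positive with a joined median of -0.14. Ighv1-81 had 2.75 and 2.01 CPM at 65 Gy and 9.1, 7.21 and 17.1 CPM at 75 Gy at 6 weeks (2.23 (SE 0.36); edgeR, adjusted p = 0.293), and DESeq2 called it at that time (adjusted p = 5.87e-06). In the light chains, Igkv8-30 had 1.24 and 2.11 against 4.31, 7.69 and 15.5 CPM, whereas Igkv8-24 had 43.7 and 147 against 2.74, 3.3 and 12.4 CPM. The plasma cell list had a median of 0.16 with 11 of 14 positive. Segments of a family are near-identical, and their counts are uncertain where reads could be split. The class-switched constant gene Ighg1, chosen after its values were seen, had 23.4 and 11.5 against 57.9, 63.7 and 126 CPM at 6 weeks.

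The remaining lists had joined medians between -0.20 and 0.16. Of 69 genes of collagens and matrix, 35 were positive with a median of 0.024. At an unadjusted p under 0.05, 2 (2.9%) were higher and 2 (2.9%) lower, against 6.69% and 6.17% of all genes. Of the 69, 29 are in the longest quintile, and with the length trend removed 46 were positive, the median was 0.052 and 6 were higher. Col12a1, a collagen of fibril surfaces, gave -0.22 (SE 0.068), or -0.09 with the length trend removed, and Mmp12, the elastase of macrophages, 0.74 (SE 0.26) with 173 CPM in library 3134, or 0.41 without it. The fibrillar collagen gene Col1a1, chosen after its values were seen, had 514, 344 and 393 against 332, 549 and 486 CPM at 2 weeks and 369.6 and 305 against 292, 252 and 199 CPM at 6 weeks (-0.13 (SE 0.17)), with a 95% interval from -0.50 to 0.24. Of 63 mitotic genes, 48 were positive with a median of 0.087, and 2 (3.2%) were higher at that p. Ska1, a spindle protein gene, gave 0.14 (SE 0.22). Of 36 targets of p53, 22 were positive with a median of 0.03, and Cd80, which also marks activated antigen-presenting cells, gave 0.49 (SE 0.18). Eicosanoid genes had a median of 0.046 with 5 of 39 (12.8%) higher at that p. Of these 39, 12 are in the shortest quintile, where 19.9% of all genes were higher at that p. Tbxas1, the thromboxane synthase of macrophages, led the list (0.47 (SE 0.18), or 0.23 without library 3134). Medians were -0.14 for 19 neutrophil, -0.10 for 22 ciliated cell, -0.13 for 18 airway secretory, -0.071 for 18 circadian clock, -0.13 for 22 immediate early, 0.075 for 18 heat shock and 0.16 for 7 aryl hydrocarbon receptor genes. Erythroid, brown adipocyte, skeletal muscle and thymocyte lists had medians of -0.047, -0.20, 0.023 and -0.011 over 13, 14, 22 and 8 genes. Several of these lists had opposite signs at the separate times. Medians at 2 and 6 weeks were 0.43 and -0.31 for aryl hydrocarbon receptor, 0.22 and -0.43 for erythroid and -0.021 and 0.12 for p53 genes. They were -0.39 and 0.18 for brown adipocyte, -0.18 and 0.14 for skeletal muscle and 0.21 and -0.14 for thymocyte genes. For neutrophil genes the joined median of -0.14 had the opposite sign to both times. Their medians were 0.074 at 2 weeks and 0.079 at 6 weeks, with 12 and 11 of 19 genes positive.

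The dose differences of the separate times, which share no library, had the same sign in 62.1% of all genes and in 65.3% of the 16071 that averaged 0 log2 CPM or more. Across all genes, the Spearman correlation of the log2 fold changes was 0.22 and the Pearson correlation 0.049, and across the 16071 genes they were 0.36 and 0.12. Genes are not independent, and the value is a description. With the length trend removed, the sign was the same in 59.9% of 19209 genes and the Spearman correlation was 0.19. In 60 genes every 75 Gy library was above every 65 Gy library at 2 weeks and below at 6 weeks, and in 94 the reverse held, against 317 and 334 with the same direction at both times.

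The single called gene was Gm4788 (chr1:139697919-139781239) of GRCm38.p6, a predicted gene model. It had 4.5, 5.23 and 4.78 CPM in the 65 Gy and 5.63, 4.21 and 4.18 CPM in the 2-week 75 Gy libraries. At 6 weeks both 65 Gy libraries had 0 counts, and the 75 Gy libraries had 6.43, 6.71 and 6.79 CPM. With a floor of 3 counts per library in place of 0, the lowest 75 Gy library of 6 weeks was at least 125-fold higher. The gene also had 0 counts in 2 non-irradiated libraries, 1 of each time (3126 and 3135), and from 239 to 389 counts in the 13 other libraries, with nothing between. The adjusted p was 4.02e-06 at 6 weeks and 1.11e-05 for the difference between times (edgeR). With all 17 libraries in the fit, neither comparison called a gene, and the lowest adjusted p was 0.0656 at 6 weeks and 0.258 for the difference between times (edgeR).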

How the data were processed

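Reads were trimmed (Trimmomatic), mapped to GRCm38.p6 (HISAT2) and assembled (StringTie) by the authors, who deposited whole-number read counts for 45777 genes without normalization. How the counts were derived from StringTie is not given in the sources used here. From these counts, the 11 irradiated libraries were fitted in R 4.3.3 with edgeR 4.0.16 (filterByExpr at 10 counts per gene and 15 in total, TMM factors, quasi-likelihood F test, Benjamini-Hochberg adjustment), with time and dose as terms for the joined comparison and 1 coefficient per group for the others. A gene was called at an adjusted p of 0.05 or less and an absolute log2 fold change of 1 or more. The code was tested on simulated data. Levels are CPM scaled with TMM factors. Principal components and variance shares used log2 CPM (prior count 2), and dose labels were permuted within times. Transcript lengths and promoters came from the annotation and RefSeq tables of GRCm38.p6, and the length trend of a library was a lowess curve used as an offset.

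The comparison and the 37 gene lists were chosen with earlier results of these data known. Genes were named if they had the 10 smallest p in a direction of the joined comparison, the 5 smallest in the others (all with a mean of 0 log2 CPM or more), the 3 smallest in a list, or were measured by RT-qPCR in the study. Some genes that meet this rule are not reported here. Other genes are said to be chosen after their values were seen, as were Sftpc and Scgb1a1. Alternatives were other factors, filters and tools (DESeq2 1.42.0, limma 3.58.1 with voom), all 17 libraries in the fit and each library left out. The fits without 3129 and 3134 and those without the length or GC trend were added after seeing the data.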

Additional observations from a re-analysis of the deposited data

Results flagged for a closer look

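Gm4788 passed the adjusted test between the doses at 6 weeks, and the difference of these differences passed the adjusted test (edgeR, adjusted p = 1.11e-05). It rests on 0 counts in both 65 Gy libraries of 6 weeks, and the gene also had 0 counts in 2 non-irradiated libraries.

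In 6 further named genes, the libraries of both doses were apart at each time but in opposite directions. These genes were named for a small p at 2 weeks, at 6 weeks or for the difference between times. Such a reversal follows in part from that choice. The log2 fold change at 6 weeks minus that at 2 weeks was 1.13 for Tafa5, 1.85 for Pdk4, 1.23 for Gm2115 and 4.30 for Igkv6-25, which were lower at 75 Gy at 2 weeks and higher at 6 weeks. It was -1.18 for Ip6k3 and -5.47 for Igkv8-24, which went the other way. The test of the difference gave an adjusted p of 0.844 or more for these genes (edgeR), so that none passed, whereas DESeq2 called 5 of the 6, with an adjusted p of 0.000247 for Igkv6-25, 0.00278 for Pdk4, 0.00782 for Igkv8-24, 0.0319 for Gm2115 and 0.0379 for Ip6k3. Over all 21715 genes tested such a reversal was seen in 60 genes of the one direction and 94 of the other. The libraries were apart in the same direction at both times in 317 and 334 genes.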

How the results depend on the processing

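With the times joined, 0 genes were called under all alternatives except DESeq2 (5 genes: Ptgdr, Rims2, Ighv1-81, Gm21149 and Gm32276) and the equally weighted mean of the times (1, Gm4788), and without each library in turn the count was 0 to 0. DESeq2 called 15 genes at 2 weeks, 19 at 6 weeks and 23 for the difference between times. At 6 weeks and for the difference, 0 genes were called with at least 10 counts required in every library, which removes Gm4788, and 0 with all 17 libraries in the fit. Leaving out 1 library gave 0 to 1 genes at 2 weeks (1 each without 3129, 3131 or 3132), 1 to 1 at 6 weeks and 1 to 2 for the difference (2 without 3131). The genes called at 2 weeks were AY036118 without 3129, 4930506C21Rik without 3131 and Apoe without 3132. Apoe then had a log2 fold change of 1.22 (edgeR, adjusted p = 0.0404).

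The dose share of variance was 9.59% to 10.9% without 1 library (10.9% without 3133), against 9.26% with all 11. No permutation test was run for these smaller sets, so that the higher shares do not show a larger dose difference. With the length and GC trends removed the share was 8.54% (exact permutation test, p = 0.105). The Spearman correlation between times was 0.14 to 0.24 without 1 library (0.14 without 3140, 0.15 without 3132, 0.17 without 3134), 0.32 with at least 10 counts in every library and 0.14 with both trends removed.

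The joined log2 fold change was reversed for Adipoq and Car3 with limma-voom (0.24 and 0.050). Without 1 library it ranged from -1.56 to 0.69 for Adipoq, -1.64 to 0.73 for Car3 and -2.17 to 0.19 for Plin1 (each reversed without 3129), from -0.0098 to 0.68 for Cxcl10, -0.69 to 1.14 for Acod1 and -0.089 to 0.45 for Saa3 (without 3134), and from -0.025 to 0.16 for Tiparp (without 3138). List medians changed sign in 61 of 666 cases, in 19 of 37 lists. Apart from the library left out or the filter, the cause was not tested. The part of depth in the values of genes with low counts was not tested, and 65 Gy at 6 weeks has 2 libraries. The labels give no pairing between libraries, and no paired analysis was run.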
